A study of Homo sapiens with 12 samples.

Results

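The FOS and JUN family of AP-1 transcription factors was followed in TE-1, an established human oesophageal cancer cell line, after IFI6 was raised or lowered. IFI6 is an interferon-induced gene. The 7 members FOS, FOSB, FOSL1, FOSL2, JUN, JUNB and JUND were picked by gene symbol from 19771 protein-coding genes in the deposited table. The family was selected on earlier results from these same values, so the levels and differences of its members are a description and no test of a member is read. All 7 members had a mean of at least 1 FPKM (fragments scaled by transcript length and by library size) over the 12 libraries, the minimum for the 10925 genes tested.

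Total RNA was sequenced 48 h after transfection, with 3 libraries in each of 4 groups. OE_IFI6 cells carried a vector overexpressing IFI6, and OE_control cells its control vector. The sh_IFI6 cells carried a hairpin vector against IFI6, and sh_control cells a control hairpin vector. All groups are 1 cell line, grown with serum, and no group was left without a vector. The labels name neither the promoters of the vectors nor the hairpin sequences. They do not say if libraries of 1 group were separate cultures, so p-values cover only library-to-library spread, and that may be technical. The question set by the design is which genes and pathways respond to different levels of IFI6.

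AP-1 is a dimer of basic leucine zipper (bZIP) proteins. JUN proteins pair with each other or with FOS proteins, whereas FOS proteins need a JUN partner to bind DNA. FOS, FOSB, JUN and JUNB are classical immediate early genes, whose transcripts appear quickly after growth factors, serum or stress and decay quickly, while JUND is transcribed more steadily. Oesophageal squamous cells use these factors in keratinocyte proliferation, differentiation and invasion programmes. That is background, and whether it holds for the TE-1 cells used here was not tested.

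IFI6 levels followed the labels. IFI6 stood at 312 FPKM ± 45 (SD, n = 3) in OE_IFI6 and 24.7 ± 5.92 (SD, n = 3) in OE_control, and at 14.6 ± 0.646 (SD, n = 3) in sh_IFI6 and 23.4 ± 1.97 (SD, n = 3) in sh_control. The sh_IFI6 libraries all lay below the sh_control libraries, but IFI6 did not pass the limma threshold in the knockdown (log2 difference -0.64, adjusted p = 0.818). Between 10650 and 10987 protein-coding genes reached 1 FPKM in a library. On the first principal component (23.1% of the variance) the 3 OE_control libraries scored -30.6 to -22.2 and the other 9 scored 5.89 to 11.3, so every comparison with OE_control rests on libraries that stood apart. Of 8 epithelial markers, KRT8 and KRT18 reached 1 FPKM on average, while EPCAM, KRT5 and SOX2 were listed at 0 in all 12 libraries. The summed level of these 8 markers was 1092 to 1314 FPKM in OE_control, 1298 to 1680 in OE_IFI6, 1180 to 1454 in sh_control and 1410 to 1572 in sh_IFI6. Of 4 immune markers CD68 reached 1 FPKM on average and CD3E was listed at 0, and their sum was 1.31 to 1.34 FPKM in OE_control, 0.551 to 0.977 in OE_IFI6, 0.742 to 1.02 in sh_control and 0.814 to 2.09 in sh_IFI6. The OE_control libraries thus lay above those of OE_IFI6 and sh_control in this sum. Of 6 fibroblast markers 5 reached 1 FPKM (COL1A1, COL3A1, DCN, LUM and PDGFRB), with sums of 6.92 to 8.06 FPKM in OE_control, 6.82 to 8.62 in OE_IFI6, 7.75 to 9.42 in sh_control and 7.7 to 8.58 in sh_IFI6. Of 4 endothelial markers 0 reached 1 FPKM, KDR was listed at 0, and their sum was at most 0.131 FPKM. The part of these markers in the results below was not tested.

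Sequence before the transcription start is shown for the 3 members that were lowest together in OE_control (FOS, JUN and JUNB) and, for contrast, for JUND. RefSeq promoter windows (GRCh38.p14; 250 bases before to 50 after the start) were found for 6 of the 7 members, and positions are counted from the RefSeq start. That start is the deposited one for JUNB and JUND, but lies 2 bases after the deposited start of FOS and 280 bases after that of JUN. The JUN window is therefore transcribed by the deposited annotation, and for JUN only the 30 bases around 1 motif are printed. The others are printed from -210 to -55 (FOS, up to the earliest start in GENCODE 29) or -210 to -1, 5′ to 3′ on the gene's strand. The printed bases lie at chr14:75278618-75278773 (FOS, plus strand), chr1:58784096-58784125 (JUN, minus), chr19:12791276-12791485 (JUNB, plus) and chr19:18281623-18281832 (JUND, minus). Capitals mark matches to the motifs named in the next paragraph.
FOS: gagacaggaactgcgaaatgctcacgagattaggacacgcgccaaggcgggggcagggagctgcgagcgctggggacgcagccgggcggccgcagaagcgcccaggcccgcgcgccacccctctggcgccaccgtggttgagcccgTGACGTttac
JUN: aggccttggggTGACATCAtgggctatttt
JUNB: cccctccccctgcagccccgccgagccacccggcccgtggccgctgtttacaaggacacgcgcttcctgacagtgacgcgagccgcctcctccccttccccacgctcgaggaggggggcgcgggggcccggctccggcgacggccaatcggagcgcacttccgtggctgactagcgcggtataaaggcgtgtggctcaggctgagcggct
JUND: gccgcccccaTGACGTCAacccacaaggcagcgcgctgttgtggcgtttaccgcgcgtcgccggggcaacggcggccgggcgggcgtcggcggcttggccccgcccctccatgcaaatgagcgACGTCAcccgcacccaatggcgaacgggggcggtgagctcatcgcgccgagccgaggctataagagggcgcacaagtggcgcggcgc

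Motifs were searched on both strands in the whole 300-base window. JUN held TGACATCA, the variant AP-1 site, at -67, and GAANNTTC, a pair of heat shock factor units, at -150. Among all 35116 promoters of that length, 2.61% held TGACATCA and 6.77% held GAANNTTC. JUND held TGACGTCA, the full cyclic AMP response element, at -200, against 1.85% of all promoters. FOSL2 held the AP-1 site TGANTCA just after its start, at position 5, against 7.71% of all promoters. FOS, FOSB and JUNB held none of these, and none of the 6 held a CArG box, the site of serum response factor, in this window (1.29% of all promoters). The half-site TGACGT, looked for only after the sequences had been seen and contained within TGACGTCA, lay at -64 in FOS, -60 in FOSB and -66 in FOSL2, and at -200 and -87 (here as ACGTCA) in JUND, against 7.98% of all promoters. JUN and JUNB lacked it, so within these windows the 3 members that were lowest in OE_control shared none of the motifs searched. Sequence outside the windows was not searched, and the JUN window lies after the deposited start of that gene.

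In the deposited tables FOS (ENSG00000170345) lies at chr14:75278826-75282230, FOSB (ENSG00000125740) at chr19:45467995-45475179, FOSL1 (ENSG00000175592) at chr11:65890583-65900639 and FOSL2 (ENSG00000075426) at chr2:28392448-28417317. JUN (ENSG00000177606) lies at chr1:58780788-58784327, JUNB (ENSG00000171223) at chr19:12791486-12793315 and JUND (ENSG00000130522) at chr19:18279760-18281622. FPKM, being per length, allows genes to be set side by side. Among 10925 genes ranked by mean FPKM, JUNB was 254th, JUN 390th, JUND 534th, FOS 566th, FOSL2 2316th, FOSB 5994th and FOSL1 9097th. JUNB was the highest member in 12 of 12 libraries. JUN came second in 9 of 12 libraries, and JUND came second in the 3 OE_control libraries. The order of FOS and JUND varied by group: JUND was above FOS in 3 of 3 OE_control libraries, while FOS was above JUND in 2 of 3 OE_IFI6, 3 of 3 sh_control and 1 of 3 sh_IFI6 libraries. FOSL2 lay below those 4 and above FOSB and FOSL1 in every library, and FOSB exceeded FOSL1 in 11 of 12 libraries, OE_control 1 being the exception.

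**Figure D1:**
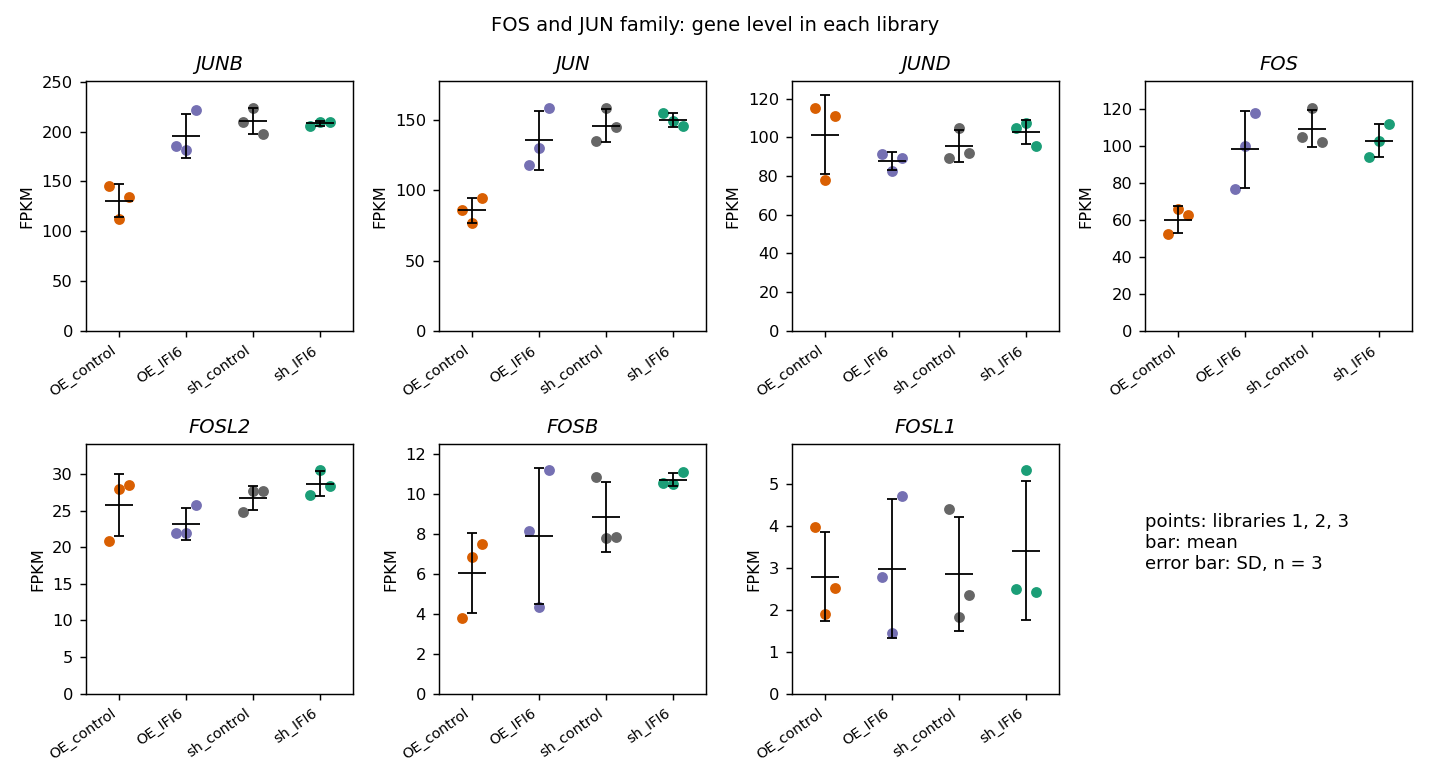
FPKM of each family member (vertical axis, linear from 0, 1 scale per panel) in the 4 groups; points are libraries, horizontal bars the mean and error bars the SD (n = 3). FOS, JUN and JUNB show all 3 OE_control libraries under the other 9, while JUND, FOSL2, FOSB and FOSL1 overlap between OE_control and OE_IFI6.

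FOS, whose protein is the prototype partner of JUN, had its lowest levels in the overexpression control. In OE_control its libraries 1, 2 and 3 gave 52.1, 65.7 and 62.7 FPKM, and in OE_IFI6 they gave 76.6, 100.1 and 117.8 FPKM. The sh_control libraries gave 104.7, 120.6 and 102.2 FPKM, and the sh_IFI6 libraries gave 94.3, 102.6 and 111.8 FPKM. The 3 OE_control values lay below all others, and OE_IFI6, sh_control and sh_IFI6 overlapped. Its mean was 1.63 times higher in OE_IFI6 than in OE_control, a log2(FPKM + 1) difference of 0.68 (95% interval 0.35 to 1.02). In bulk RNA, fewer cells with the transcript and less transcript per cell cannot be told apart.

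JUN, the founding member of the JUN proteins and a substrate of JUN N-terminal kinase, was also lowest in OE_control. Its levels were 85.9, 76.7 and 94.8 FPKM in OE_control libraries 1, 2 and 3, and 117.8, 130.1 and 158.7 FPKM in OE_IFI6. They were 135.0, 158.5 and 144.8 FPKM in sh_control and 154.9, 149.5 and 145.4 FPKM in sh_IFI6. The highest OE_control library was below the lowest of the other 9, and the mean was 1.58 times higher in OE_IFI6 than in OE_control (log2 difference 0.65, 95% interval 0.38 to 0.92). The long non-coding gene LINC01135 overlaps the 5′ end of JUN by 131 bases (chr1:58784197-58906084). Its level was 0.849 to 1.15 FPKM in OE_control, 1.62 to 2.17 in OE_IFI6, 1.39 to 1.96 in sh_control and 1.07 to 1.41 in sh_IFI6, which are low values.

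JUNB, a JUN protein often described as a weaker activator than JUN and a brake on proliferation, was the most abundant member. OE_control libraries 1, 2 and 3 had 145.1, 112.5 and 134.2 FPKM, and OE_IFI6 libraries had 185.5, 181.2 and 221.3 FPKM. Levels were 209.4, 223.9 and 197.6 FPKM in sh_control and 205.7, 209.7 and 209.2 FPKM in sh_IFI6. OE_control again lay wholly below the other 9 libraries, and the OE_IFI6 mean was 1.5 times the OE_control mean (log2 difference 0.58, 95% interval 0.33 to 0.84). HOOK2, which codes for a microtubule-linked adaptor, runs on the opposite strand across the whole of JUNB. HOOK2 was at 23.5 FPKM ± 1.53 (SD, n = 3) in OE_control, 36.2 ± 1.89 in OE_IFI6, 40.9 ± 8.21 in sh_control and 36.1 ± 1.74 in sh_IFI6. The labels do not state if counting used strand, so reads of JUNB and HOOK2 may not have been separated.

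JUND, the JUN protein with the steadiest transcript in most cells, did not share this pattern. Its levels were 115.3, 78.1 and 111.0 FPKM in OE_control libraries 1, 2 and 3, and 91.3, 82.7 and 89.6 FPKM in OE_IFI6. They were 89.3, 104.9 and 92.0 FPKM in sh_control and 105.0, 107.2 and 95.7 FPKM in sh_IFI6. OE_control held both the highest and the lowest library of all 12, and overlapped every other group. The OE_IFI6 mean was 0.866 of the OE_control mean (log2 difference -0.19, 95% interval -0.49 to 0.12).

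FOSL2, also called FRA2 and a FOS protein without a strong activation domain, varied little. It ranged from 20.9 to 28.5 FPKM in OE_control, 22 to 25.8 in OE_IFI6, 24.8 to 27.8 in sh_control and 27.2 to 30.5 in sh_IFI6. Its overexpression difference was -0.14 on the log2 scale (95% interval -0.42 to 0.15).

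FOSB, whose splice forms include a truncated protein, was far below FOS in every library. OE_control libraries 1, 2 and 3 had 3.76, 6.84 and 7.49 FPKM, and OE_IFI6 libraries had 8.13, 4.36 and 11.2 FPKM. The sh_control libraries had 10.9, 7.81 and 7.83 FPKM, and the sh_IFI6 libraries 10.6, 10.5 and 11.1 FPKM. All 3 OE_control values were under the sh_control values, but OE_IFI6 spanned nearly the whole range (log2 difference from OE_control 0.30, 95% interval -0.31 to 0.92).

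FOSL1, also called FRA1 and linked to invasion in squamous carcinoma, was the lowest member. It ranged from 1.89 to 3.96 FPKM in OE_control, 1.43 to 4.72 in OE_IFI6, 1.83 to 4.39 in sh_control and 2.41 to 5.32 in sh_IFI6, so all groups overlapped. This value is not a clean measure of FOSL1. The assembled, unannotated transcript that carried 91.4% of it spans chr11:65890583-65900639, reaching 1466 bases past the annotated end of FOSL1 and overlapping CCDC85B by 1053 bases on the opposite strand. The annotated FOSL1-201 was at most 0.421 FPKM in any library, and CCDC85B averaged 31.2 to 37.8 FPKM over the groups.

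Counted against the threshold used for all genes (limma, Benjamini-Hochberg adjusted p under 0.05), 3 of 7 members were higher in OE_IFI6 than in OE_control, namely FOS, JUN and JUNB. Over all genes tested 4.10% were called higher in that comparison, and since the family was proposed from this contrast nothing is read from the count. The same 3 members had OE_IFI6 libraries wholly above OE_control, against 13.5% of all genes. The count falls to 0 of 7 when the model is fitted to the 6 libraries of these groups only, with the size of the differences kept. FOS was not past the threshold without OE_IFI6 2, without OE_IFI6 3 or without OE_control 1, where its log2 difference was 0.66, 0.54 and 0.58. JUN and JUNB were past it in 21 of 22 alternatives each.

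The 2 control vectors were also set against each other. OE_control was lower than sh_control by 0.85 for FOS (95% interval of the log2 difference -1.19 to -0.52), 0.76 for JUN (-1.03 to -0.49) and 0.69 for JUNB (-0.94 to -0.44). These 3 of 7 members were past the threshold, against 4.78% of all genes called lower. Nothing is read from this count either, since the family was chosen on these values. Each of the 3 was past the threshold in 22 of 22 alternatives. FOSB was 0.51 lower (-1.13 to 0.10) and JUND 0.07 higher (-0.24 to 0.38). Including FOSB, 4 of 7 members had OE_control libraries wholly below sh_control, against 20.3% of all genes. This comparison shares the OE_control libraries with the overexpression comparison, so the values stand side by side and one does not support the other.

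OE_IFI6 was also set against sh_control, a comparison without OE_control that crosses the types of vector. The OE_control libraries still entered the shared fit and its estimate of the spread. Under limma 0 of 7 members passed the threshold (0.0183% of all genes did). An unadjusted p under 0.05 was found for 0 of 7 members and for 503 of 10925 genes. Libraries that did not overlap were found for 0 of 7 members (9.54% of all genes). The log2 difference was -0.17 for FOS (95% interval -0.51 to 0.17), -0.12 for JUN (-0.39 to 0.16) and -0.10 for JUNB (-0.36 to 0.15). FOS, JUN and JUNB in OE_IFI6 thus lay above OE_control and not above sh_control.

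The hairpin groups were set against each other in the same way. Between sh_IFI6 and sh_control 0 of 7 members passed the limma threshold, 0 of 7 had an unadjusted p under 0.05, and 0 of 7 had libraries that did not overlap, where 19.1% of all genes did. Over all genes the called share was 0%, with 563 of 10925 genes at an unadjusted p under 0.05. No result is read from these counts, since 7 members are few against such shares and IFI6 itself was not called. FOS differed by -0.08 on the log2 scale (95% interval -0.42 to 0.25), JUN by 0.04 (-0.23 to 0.31) and JUNB by -0.01 (-0.26 to 0.24). FOSB differed by 0.27 (-0.35 to 0.88), FOSL1 by 0.19 (-0.59 to 0.96), FOSL2 by 0.10 (-0.19 to 0.38) and JUND by 0.11 (-0.20 to 0.41).

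**Figure D2:**
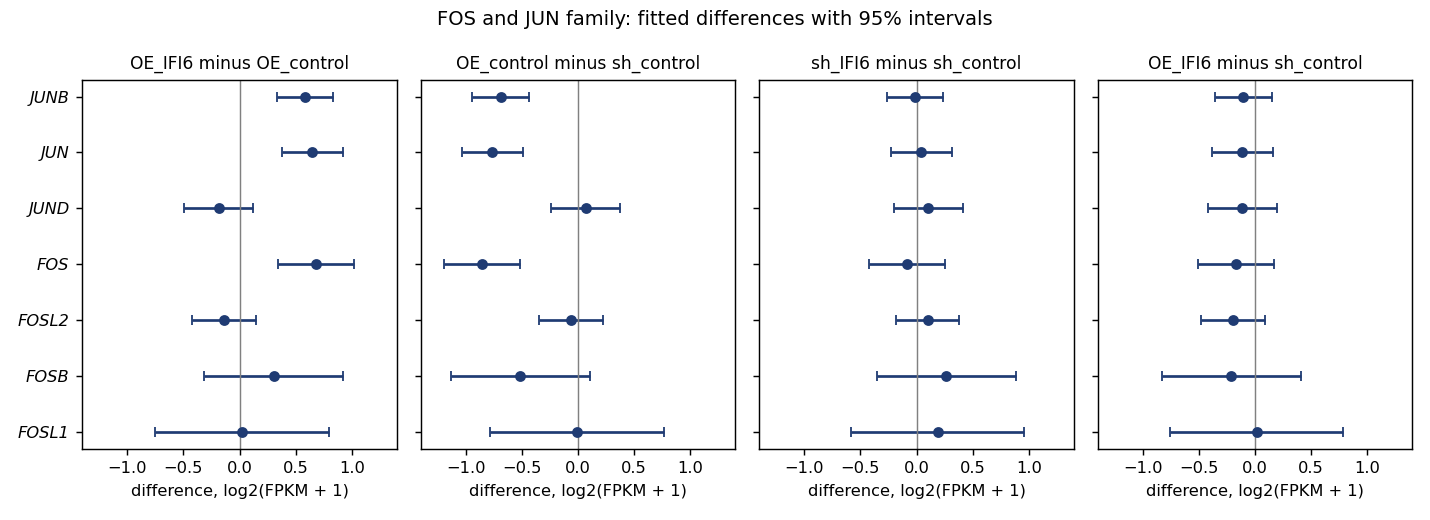
Fitted differences in log2(FPKM + 1) for the 7 members (points) with 95% intervals (bars) in 4 comparisons. FOS, JUN and JUNB lie right of 0 at 0.58 to 0.68 against OE_control and left of 0 where OE_control is set against sh_control, while the intervals of all 7 members include 0 in the 2 panels on the right.

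The overexpression effect minus the knockdown effect was 0.77 for FOS (95% interval 0.29 to 1.24), 0.61 for JUN (0.22 to 0.99) and 0.60 for JUNB (0.24 to 0.95). By limma 0 of 7 members passed the threshold for this difference, against 2.69% of all genes. An unadjusted p under 0.05 was found for 3 of 7 members and for 2062 of 10925 genes. Nothing is read from this count, since the family was chosen on these values. After quantile normalization FOS, JUN and JUNB passed, at 0.87, 0.75 and 0.78, and FOS also passed without OE_IFI6 1, at 0.93. In 21 alternatives FOS passed in 2, JUN in 1 and JUNB in 1.

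Summed over the 7 members, the family came to 413 FPKM ± 37.9 (SD, n = 3) in OE_control and 552 ± 67.6 in OE_IFI6. It came to 599 ± 39.8 in sh_control and 607 ± 7.92 in sh_IFI6. The highest OE_control library had 441 FPKM and the lowest of the others 504. JUND made up 29.2% to 33.3% of summed JUN, JUNB and JUND FPKM in OE_control, 19.1% to 23.1% in OE_IFI6, 20.6% to 21.5% in sh_control and 21.2% to 23.0% in sh_IFI6. The FOS members together held a similar mean share of the family in each group, 23.2% ± 4.41 (SD, n = 3) in OE_control, 23.9% ± 1.90 in OE_IFI6, 24.6% ± 0.349 in sh_control and 24.0% ± 1.53 in sh_IFI6. Within OE_control that share ran from 18.9% to 27.7%.

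**Figure D3:**
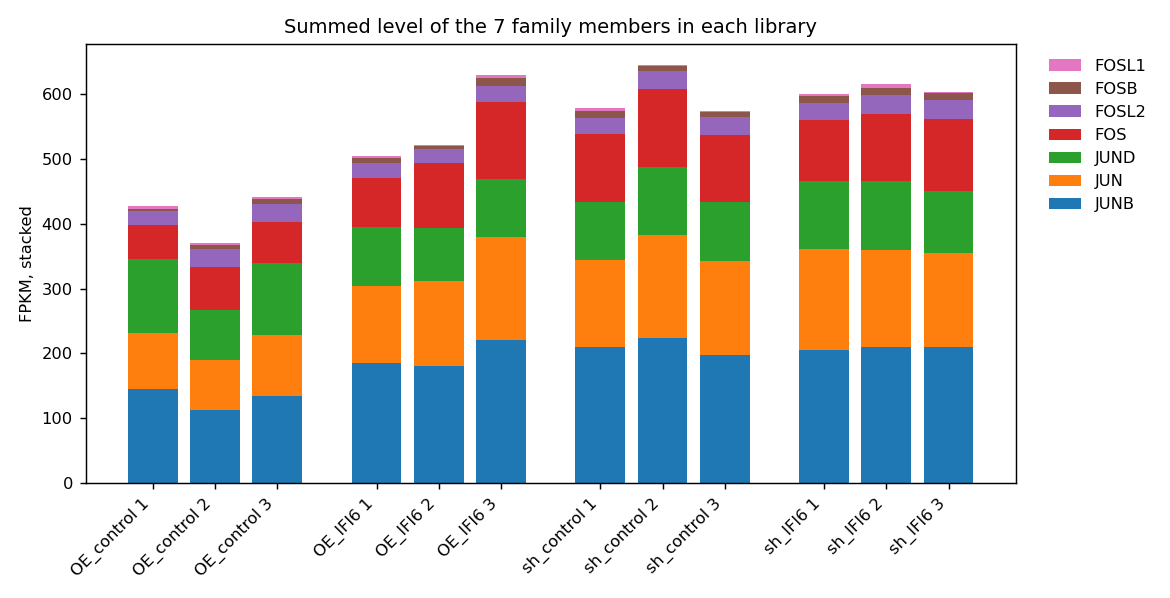
FPKM of the 7 members stacked in each of the 12 libraries (vertical axis from 0). The OE_control bars reach 370 to 441 FPKM and the other 9 reach 504 to 645, and the JUND segment is 78.1 to 115.3 FPKM high in OE_control, overlapping the other groups, while the JUN, JUNB and FOS segments are shorter in OE_control.

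The deposited transcript table splits each member further, and the values of a gene's transcripts add up to its own. JUN and JUNB have 1 transcript each, JUND-201 held 99.8% of JUND, and FOSL2-201 held 94.1% of FOSL2. For FOS, 7 of 10 transcripts were above 0. The protein-coding FOS-206 and FOS-201 held 26.8% and 25.4% of summed FOS, and FOS-209, which GENCODE 29 lists as a processed transcript without a coding sequence, held 26.0%. About that share of the FOS gene level is therefore assigned to a non-coding transcript.

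The estimated division of FOS among its transcripts is given for the hairpin groups. FOS-201, the full-length coding transcript, had 30.9, 28.0 and 30.1 FPKM in sh_control libraries 1, 2 and 3, and 17.5, 21.1 and 20.8 FPKM in sh_IFI6. FOS-204, a shorter coding transcript from the same start region, had 8.20, 8.21 and 4.57 FPKM in sh_control and 11.2, 9.40 and 10.6 FPKM in sh_IFI6. FOS-201 was thus wholly lower and FOS-204 wholly higher in sh_IFI6. In OE_control FOS-201 had 14.2, 19.3 and 17.7 FPKM and in OE_IFI6 27.8, 25.8 and 29.6 FPKM, so the sh_IFI6 libraries lay nearer to OE_control for this transcript. Of the 13 member transcripts with a mean of at least 1 FPKM, 3 did not overlap between sh_IFI6 and sh_control (FOS-201, FOS-204 and FOSB-205), against 14.3% of 28221 transcripts. No test was run on them, and nothing is read from so small a number. These transcripts overlap one another, and the split between them is the authors' estimate.

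FOSB was divided unevenly from library to library. FOSB-205, a retained-intron transcript, had 6.66, 7.02 and 7.27 FPKM in sh_IFI6 but 0.0108, 0.896 and 0.00141 FPKM in sh_control. In OE_IFI6 it had 5.59, 0.0192 and 6.20 FPKM, and in OE_control 0.0847, 0.451 and 4.68 FPKM. It held 38.7% of summed FOSB over all libraries, 65.2% in sh_IFI6, 3.43% in sh_control, 49.9% in OE_IFI6 and 28.8% in OE_control. The FOSB gene level is therefore in good part assigned to a non-coding transcript in some groups. The coding FOSB-201 stood between 0 and 4.49 FPKM and was listed at 0 in sh_IFI6 1. FOSB-213 took 7.67 FPKM in sh_control 1 and was listed at 0 in the other 11 libraries. ERCC1, a DNA repair gene on the opposite strand, spans all of FOSB and was level between groups at 24.8 to 25.8 FPKM. Reads of FOSB and ERCC1 may not have been separated either, since the use of strand in counting is not stated.

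**Figure D4:**
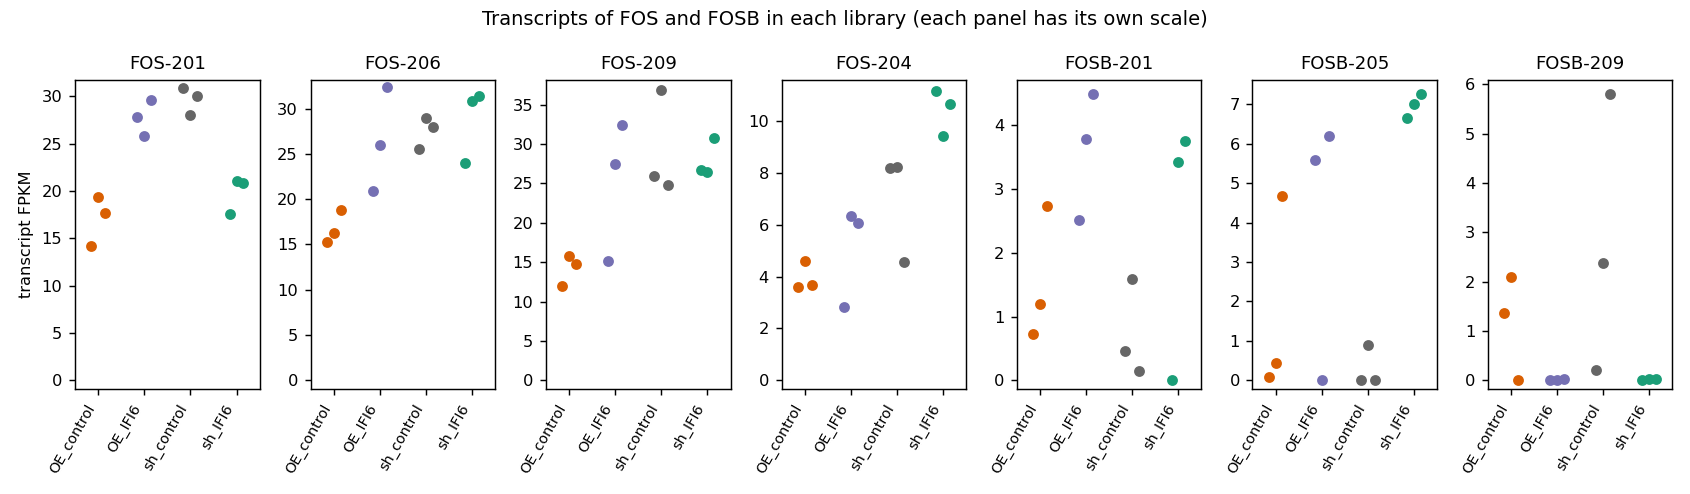
FPKM of 4 FOS and 3 FOSB transcripts (vertical axes from about 0, each panel with its own scale); points are libraries 1, 2 and 3 of each group. FOS-201 is lower and FOS-204 higher in sh_IFI6 than in sh_control, and FOSB-205 is at 6.66 to 7.27 FPKM in sh_IFI6 while it is near 0 in several libraries of the other groups.

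The other genes of the pathway were taken from 5 lists drawn up with earlier results of these data known, and they were tested by limma over all 10925 genes. Of 30 bZIP partners and relatives, 22 were tested. In OE_IFI6 against OE_control 0 rose and 4 fell (18.2%, where 3.56% of all genes fell), and the median log2 difference was -0.23 against 0.05 over all genes. DDIT3, the stress factor CHOP, fell by 2.0 (SE 0.14, adjusted p = 1.23e-05), with 17.3, 19.1 and 21.8 FPKM in OE_control and 3.38, 4.81 and 4.15 FPKM in OE_IFI6. CREM, a cyclic AMP responsive modulator, fell by 0.74 (SE 0.13, adjusted p = 0.00597), MAFK, a small MAF protein, by 0.90 (SE 0.20, adjusted p = 0.0197), and ATF4, the integrated stress response factor, by 0.39 (SE 0.10, adjusted p = 0.0325). With only the compared libraries in the model 1 of these calls was left. The MAFK call was also lost without OE_control 2 or 3 or OE_IFI6 1 or 2, and that of ATF4 in 10 of 22 alternatives, among them leaving out OE_control 1 or 3, OE_IFI6 1 or 2, sh_control 3 or any sh_IFI6 library. In OE_control against sh_control 3 partners rose, DDIT3 by 1.81, CREM by 1.09 and ATF4 by 0.43, where 2.75% of all genes did, and the ATF4 call was kept in 16 of 22 alternatives, not without OE_control 1 or 3 or sh_control 1 or 3. The direction of these partners was opposite to that of FOS, JUN and JUNB in both comparisons, which share the OE_control libraries. No conclusion is drawn from that, since list and members were chosen with earlier results of these data known. ATF3, a partner that is also an immediate early gene, scattered from 9.05 to 45.2 FPKM in OE_control and from 3.8 to 18.7 in OE_IFI6 and was not called (log2 difference -0.85, limma adjusted p = 0.451).

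Among 43 upstream kinases and factors 39 were tested, and 2 rose and 0 fell in OE_IFI6 against OE_control. MAPKAPK2, a kinase downstream of p38 that acts on mRNA stability, rose by 1.36 (SE 0.10, limma adjusted p = 1.63e-05), from 17.7 FPKM ± 1.03 (SD, n = 3) in OE_control to 46.9 ± 4.97 in OE_IFI6, with 51.2 ± 1.29 in sh_control and 51.5 ± 0.935 in sh_IFI6. MAP2K4, an activator of JUN N-terminal kinase and p38, rose by 0.55 (SE 0.12, adjusted p = 0.0169), a call that was lost without OE_control 3, without OE_IFI6 2 and with only the compared libraries in the model. The share of 5.13% called higher is near the 4.10% of all genes. SRF, the serum response factor, had 6.14 FPKM ± 1.73 (SD, n = 3) in OE_control and 7.55 ± 1.26 in OE_IFI6 and was not called (limma adjusted p = 0.41). In OE_control against sh_control MAPKAPK2 fell by 1.48 and MAP2K4 fell by 0.53 (5.13% of the list, against 4.78% of all genes). The MAP2K4 call was lost without OE_control 3 or any 1 sh_control library, and with only the compared libraries.

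The 24 genes of mRNA decay and protein turnover gave 2 that rose in OE_IFI6, ZFP36L2, an AU-rich element binding protein, by 0.51 (SE 0.13, limma adjusted p = 0.0347), and DET1, part of a ubiquitin ligase for JUN, by 0.91 (SE 0.23, adjusted p = 0.0351). These 2 are 8.33% of the list, where 4.10% of all genes were called higher. The DET1 levels were under 2 FPKM. Both calls were lost together on leaving out OE_IFI6 1 or 2, OE_control 3, sh_control 2 or any sh_IFI6 library, that of ZFP36L2 also without OE_control 1 or sh_control 1 or 3, and that of DET1 also without OE_control 2 or OE_IFI6 3. In all ZFP36L2 passed in 10 of 22 and DET1 in 9 of 20 alternatives. In OE_control against sh_control ZFP36L2 fell by 0.74 and DET1 fell by 0.91, past the threshold in 22 of 22 and 9 of 20 alternatives. Leaving out OE_control 2 or 3, any sh_control library or any sh_IFI6 library ended the DET1 call. The share of the list called lower there was 8.33%, against 4.78% of all genes.

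Of 55 genes known as AP-1 targets, 35 were tested, and 1 rose while 11 fell in OE_IFI6 against OE_control. That is 2.86% called higher against 4.10% of all genes, and 31.4% called lower against 3.56%. The median log2 difference was -0.36. With only the compared libraries in the model the 12 calls became 7. DUSP5, a nuclear phosphatase of ERK, fell by 1.88 (SE 0.12, limma adjusted p = 9.61e-06), and GDF15, a stress-induced cytokine, fell by 2.31 (SE 0.20, adjusted p = 5.98e-05). GDF15 had 16.6 FPKM ± 0.667 (SD, n = 3) in OE_control, 2.64 ± 0.915 in OE_IFI6, 2.53 ± 0.284 in sh_control and 2.99 ± 0.857 in sh_IFI6. CCN2, a matricellular growth factor, rose by 1.57 (SE 0.17, adjusted p = 0.00029). Of the 12 targets called, 11 were lower in the group in which FOS, JUN and JUNB were higher. From this opposition no conclusion is drawn. The list and the members were chosen with earlier results of these data known, and both rest on the same OE_control libraries. In OE_control against sh_control 8 targets rose (22.9%, against 2.75% of all genes) and 2 fell (5.71%, against 4.78%). The median was 0.29 against -0.09 over all genes. The 2 that fell were CCN2, by 1.65, and CCND1, by 0.66, the latter singled out after its value was seen.

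The other immediate early genes did not move as one. Of 40 listed, 39 were in the table and 34 were tested. In OE_IFI6 against OE_control 4 rose (11.8%, against 4.10% of all genes) and 7 fell (20.6%, against 3.56%). With only the compared libraries in the model the 11 calls became 5. IER3 fell by 1.01 (SE 0.11, limma adjusted p = 0.00029), PPP1R15A, a phosphatase subunit of the stress response, by 1.38 (SE 0.15, adjusted p = 0.00034), CSRNP1 by 0.99 (SE 0.11, adjusted p = 0.000423), and DUSP1, a phosphatase of p38 and JUN N-terminal kinase, by 0.71 (SE 0.10, adjusted p = 0.00128). DUSP1 had 309 FPKM ± 13.4 (SD, n = 3) in OE_control and 190 ± 17.7 in OE_IFI6, with 188 ± 5.72 in sh_control and 202 ± 13.1 in sh_IFI6. The 4 that rose were DUSP2, another MAP kinase phosphatase (0.77, adjusted p = 0.00148), EGR1, a zinc finger factor (0.94, adjusted p = 0.0282), and ID1 (0.70) and KLF2 (0.84), these last named after their values were seen. EGR1 was at 0.88 to 1.04 FPKM in OE_control and 1.91 to 4.74 in OE_IFI6, and its call was lost on leaving out any 1 of the OE_control libraries. IER2 had 24.2 to 36.5 FPKM in OE_control and 41.0 to 83.9 in OE_IFI6 and did not pass (log2 difference 1.02, limma adjusted p = 0.0633). In OE_control against sh_control 4 rose (11.8%, against 2.75% of all genes) and 6 fell (17.6%, against 4.78%).

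**Figure D5:**
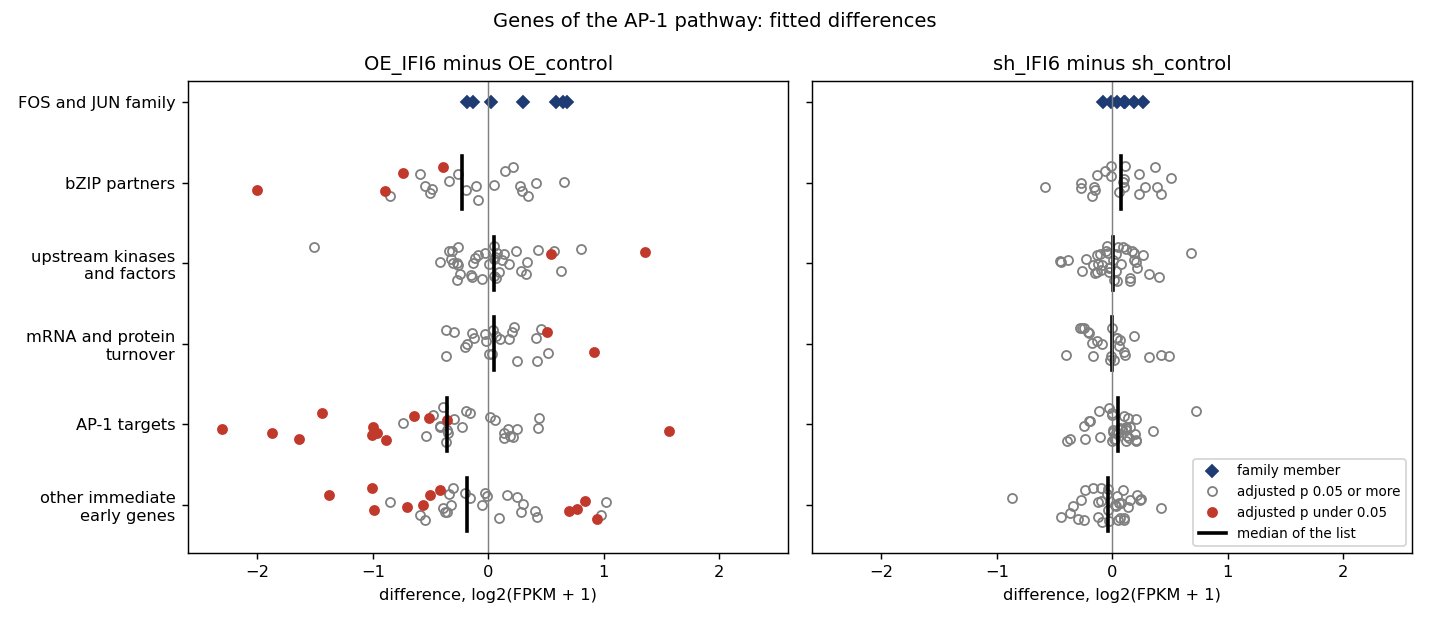
Fitted differences in log2(FPKM + 1) for the family (diamonds) and for the tested genes of 5 lists (circles, filled where the limma adjusted p was under 0.05), with the median of each list as a bar. In OE_IFI6 minus OE_control the filled circles of the partners and most of those of the targets lie left of 0, and in sh_IFI6 minus sh_control no circle is filled.

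Of the 149 genes tested from the 5 lists, 0 passed the limma threshold in sh_IFI6 against sh_control. There 8 had an unadjusted p under 0.05, against 563 of 10925 genes, and the list medians lay between -0.03 and 0.08. In OE_IFI6 against sh_control 0 passed by limma and 9 had an unadjusted p under 0.05, against 503 of 10925 genes. For the difference between the overexpression and knockdown effects 129 of 10925 genes rose, 165 fell and 2062 had an unadjusted p under 0.05. Of 22 partners 0 rose and 3 fell, and of 39 upstream genes 1 rose. Of 24 turnover genes 0 passed, with 5 at an unadjusted p under 0.05. Of 35 targets 1 rose and 6 fell, and of 34 immediate early genes 3 rose and 5 fell. The balance of calls over all genes depended on scaling. In OE_IFI6 against OE_control 53.5% of the calls were higher as deposited, 45% after median-of-ratios scaling and 43.9% after quantile normalization. Of the calls in OE_control against sh_control 36.5% were higher as deposited, 57.8% after median-of-ratios scaling and 53.4% after quantile normalization. The signs of the FOS, JUN and JUNB differences were kept in 22 of 22 alternatives in that comparison.

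Likeness was measured as Pearson's r of log2(FPKM + 1) over the 12 libraries, which share the separation of OE_control. For each member the 3 genes of highest r were taken from the other genes among the 10925 tested. A high r is thus partly due to that search, and no test of it was run. The value of r is given again over the 9 libraries without OE_control, which also served in the search and are no independent check. The genes most like FOS were CCNE1 (r = 0.968, 0.809 without OE_control), MAGEA3 (0.966, 0.865) and NELFCD (0.962, 0.843). Those most like JUN were SMAD6 (0.976, 0.916), GNAZ (0.975, 0.862) and NOP16 (0.973, 0.844). Those most like JUNB were SAMD11 (0.976, 0.847), HAGHL (0.971, 0.737) and LY6K (0.969, 0.749). All 9 had their 3 OE_control libraries below the other 9, LY6K for example at 8.50 to 12.0 FPKM against 27.8 to 38.8. FOSB was most like NDUFA13 (0.912, 0.924), INAFM2 (0.911, 0.872) and RAB3D (0.907, 0.926), and FOSL2 most like XAB2 (0.959, 0.939), TRAF7 (0.953, 0.945) and NCSTN (0.950, 0.939). Those most like JUND were ZNF579 (0.861, 0.879), FAM89B (0.860, 0.597) and C19orf24 (0.853, 0.653). Without OE_control r was lower for FAM89B and C19orf24 and slightly higher for ZNF579. Those most like FOSL1 were MROH1 (0.881, 0.923), TALDO1 (0.873, 0.864) and DALRD3 (0.868, 0.923). The FOSL1 value is mostly that of the assembled transcript overlapping CCDC85B, so this likeness may not be one of FOSL1 itself.

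Among the members themselves the pair with the highest r over 12 libraries was JUN and JUNB (0.967, 0.835 without OE_control), followed by FOS and JUN (0.922, 0.771) and FOS and JUNB (0.871, 0.760). After the group means were removed, r was 0.741 for JUN and JUNB, 0.557 for FOS and JUN and 0.190 for FOS and JUNB. JUND had r of -0.234 with FOS, 0.0597 with JUN and 0.104 with JUNB over 12 libraries. Without OE_control these values were 0.145, 0.583 and 0.553. FOSL2 had r of 0.277 with JUN, 0.115 with JUNB and 0.121 with JUND over 12 libraries. Without OE_control these were 0.771, 0.691 and 0.769, so the high r there was not confined to FOS, JUN and JUNB. JUND and JUNB varied together within groups (0.764), where the OE_control values of both were lowest in library 2.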

How the data were processed

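Gene and transcript levels are FPKM that the authors computed and deposited; their tools, per the submitters' processing notes, included HISAT2, StringTie, Cuffdiff and edgeR. Not given in the sources used here were the build, annotation and strand setting. Of 19771 protein-coding identifiers 19702 matched GENCODE 29 (GRCh38), 19652 of them at overlapping coordinates, so positions are printed as deposited. Low values lay on whole steps in at most 12.2% of cases (within 1%, over 31269 single-transcript genes), so reads were not recovered, the depth is unknown and no count test was run.

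From these values log2(FPKM + 1) was computed, with a pseudocount of 1, for protein-coding genes averaging 1 FPKM or more. This scale understates changes of low genes. All 12 libraries entered 1 limma fit (limma 3.58.1, R 4.3.3) of group means with a trended prior and 8 residual degrees of freedom. The threshold was a two-sided p under 0.05 after Benjamini-Hochberg adjustment, and the fit was tested on simulated data. Other software was data.table (release 1.17.8), pandas 2.3.3, numpy 2.4.6 and matplotlib 3.10.9. Motifs were searched in RefSeq promoter windows.

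The members and lists were chosen with earlier results of these data known. Groups come from the sample labels. Named genes are the 7 members, IFI6, up to 4 called genes of smallest p per list and comparison, ATF3, EGR1, IER2, DUSP1 and SRF whatever their values, and the 3 genes most like each member. A gene that this rule names and 1 immune marker are not reported here. The lists are partners, upstream, turnover, targets and immediate early genes, 1 gene of which was not matched. Alternatives were other pseudocounts, filters, scalings, priors, gene tables and libraries in the fit, the replicate number as a block, and leaving out each library.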

Additional observations from a re-analysis of the deposited data

How the results depend on the processing

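Fitting only the libraries compared gave fewer residual degrees of freedom and moved the number of genes called from 837 to 167 for OE_IFI6 against OE_control, from 822 to 436 for OE_control against sh_control, from 0 to 1 in the knockdown and from 2 to 5 for OE_IFI6 against sh_control. In that last comparison a minimum mean of 5 FPKM gave 1 and the table of all annotated genes gave 4. With only the libraries compared, calls in OE_IFI6 against OE_control fell to 5 of the immediate early genes, 1 partner, 7 targets and 0 turnover genes, and to 1 upstream gene in OE_control against sh_control. Turnover calls fell to 1 in both comparisons with no filter, with a minimum of 5 FPKM and with quantile normalization, and in OE_control against sh_control also with median-of-ratios scaling and with only the libraries compared. Median-of-ratios scaling gave 5 partners in OE_control against sh_control and a family total of 591 FPKM in sh_IFI6; the cause was not tested.

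Leaving out each library in turn gave 505 to 860 genes for OE_IFI6 against OE_control (lowest without OE_control 3, then 530 without OE_IFI6 2), 321 to 934 for OE_control against sh_control (lowest without sh_control 2), 124 to 518 for the difference of effects (highest without OE_IFI6 3), 0 to 1 in the knockdown and 2 to 5 for OE_IFI6 against sh_control. For OE_control against sh_control, leaving out sh_control 1 or 3 gave 441 or 407 genes and leaving out OE_control 1 or 3 gave 512 or 544. In OE_IFI6 against OE_control the list calls ran from 2 to 4 (partners), 1 to 4 (upstream), 0 to 2 (turnover), 9 to 12 (targets) and 9 to 13 (immediate early). In OE_control against sh_control they ran from 2 to 4, 1 to 3, 1 to 2, 8 to 10 and 8 to 11 in the same order.

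The replicate numbers were not used for pairing in the main fit. Deviations from the group means of same-numbered libraries correlated at 0.0872, 0.254 and 0.124 for OE_IFI6 and OE_control. For the hairpin groups they correlated at -0.0432, -0.00953 and -0.0344. With the number as a block, 802 genes were called for OE_IFI6 against OE_control, 776 for OE_control against sh_control, 250 for the difference and 0 in the knockdown. Of the named genes, ZFP36L2 lost its call in OE_IFI6 against OE_control under the block (log2 difference 0.51, limma adjusted p = 0.054). In OE_IFI6 and OE_control every library correlated best with its own number, a hint from the data and not the design.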
